A study of Mus musculus with 21 samples.

Results

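Expression of 9 genes of the complement system, C1qa, C1qb, C1qc, C4b, C3, Cfp, C3ar1, C5ar1 and Itgam, was examined in RNA sequencing of primary mouse brain microglia. They were taken by gene symbol as a list of complement components and receptors, 9 of the 54532 symbols in the deposited tables, and all 9 were present in both tables. The study asked how loss of Trem1, a myeloid cell-surface receptor that amplifies inflammatory signalling, bears on microglia of aging mice and of 5XFAD mice. One deposited table, on aging, had libraries labelled aged Trem1-/-, aged wild type (WT), young Trem1-/- and young WT, and the other, the 5XFAD table, had adult libraries labelled 5XFAD Trem1+/-, 5XFAD without a Trem1 allele named, and WT, with n = 3 libraries in each group. 5XFAD mice carry human transgenes with familial Alzheimer's disease mutations, driven by the neuronal Thy1 promoter, and develop amyloid plaques. The labels gave age in words without months, no strain, no promoter or extent for the Trem1 deletion, no isolation or sorting step, and no statement that libraries came from separate animals, so p-values measure only the spread between these samples, which may be technical.

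Complement is a set of proteins that mark surfaces for uptake and recruit phagocytes. In the classical pathway C1q, built from the products of C1qa, C1qb and C1qc, binds a target and starts the cleavage of C4 and then of C3. Properdin, encoded by Cfp, stabilises the C3-cleaving enzyme of the alternative pathway, and the cleavage products act on C3ar1, C5ar1 and the integrin that contains the Itgam product. In the brain, microglia are the main source of C1q, and C1q, C3 and the Itgam-containing receptor take part in the removal of synapses in mice.

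The 3 C1q genes lie next to each other on chromosome 4, in the order C1qb (136880129 to 136886187), C1qc (136889804 to 136893065) and C1qa (136895917 to 136898803), all on the minus strand of GRCm38. On chromosome 17, C4b lies at 34728380 to 34743882 and C3 at 57203970 to 57228136, both on the minus strand. Cfp is at 20925454 to 20931555 of chromosome X, C3ar1 at 122847138 to 122856161 of chromosome 6 and C5ar1 at 16246743 to 16259540 of chromosome 7, all on the minus strand. Itgam is at 128062640 to 128118491 of chromosome 7 on the plus strand. Strandedness of the counting is not given in the sources used here, and Gm49368, a protein-coding model on the same strand, has exons within Itgam, so reads of the 2 could be shared. Between the C4b and C4a transcripts, 35.2% of the 50-base windows of C4b also occurred in C4a, as did 8.26% of its 150-base windows, so C4b values may include or lose reads of that copy. C4a itself averaged 4.10 to 18.2 normalized counts in the 7 groups.

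The promoters of 3 members are shown because these genes moved in different comparisons below: C1qb, one of the microglial C1q genes, and C3 and Cfp, which moved together. Each is the 250 bases before the RefSeq start on GRCm38.p6, 5′ to 3′ on the minus strand, at chr4:136886201-136886450 for C1qb, chr17:57228137-57228386 for C3 and chrX:20931556-20931805 for Cfp. Capitals mark a match to GAGGAA, the core recognised by the myeloid factor PU.1, or to TTGCNNAA, recognised by C/EBP factors.
C1qb: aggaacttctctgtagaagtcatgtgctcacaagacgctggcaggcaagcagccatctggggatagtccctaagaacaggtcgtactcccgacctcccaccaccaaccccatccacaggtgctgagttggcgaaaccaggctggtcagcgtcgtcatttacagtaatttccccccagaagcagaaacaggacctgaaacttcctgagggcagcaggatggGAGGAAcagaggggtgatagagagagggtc
C3: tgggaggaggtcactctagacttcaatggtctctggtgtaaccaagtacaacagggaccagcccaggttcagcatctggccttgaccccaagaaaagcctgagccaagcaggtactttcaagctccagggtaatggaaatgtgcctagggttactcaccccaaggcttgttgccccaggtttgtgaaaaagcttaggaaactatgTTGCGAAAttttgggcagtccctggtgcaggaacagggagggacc
Cfp: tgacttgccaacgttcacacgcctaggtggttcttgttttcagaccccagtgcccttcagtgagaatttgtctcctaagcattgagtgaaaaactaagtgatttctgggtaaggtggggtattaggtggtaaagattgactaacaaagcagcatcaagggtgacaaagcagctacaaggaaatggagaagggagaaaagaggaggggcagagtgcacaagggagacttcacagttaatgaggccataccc
RefSeq entries matched 7 of the 9 members, without C1qa and C4b. Of the 250 bases, 202 in C5ar1, 151 in C1qc and 4 in C3ar1 lie within the gene as annotated by GENCODE. On either strand GAGGAA occurred in C1qb at 30 bases before the start, in C1qc at 193 bases and in Itgam at 2 places, and in 23.14% of 27018 promoters of the same length. TTGCNNAA occurred in C3 alone among the 7, at 45 bases before the start, and in 9.557% of all promoters. The core of the interferon-stimulated element occurred in none of the 7 and in 3.039% of all promoters. These matches describe the letters only and were not tested for binding.

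Gene-level depth was 8600878 to 19411434 reads per aging library, where 3 reads equalled 2.06 to 4.51 normalized counts. For the 5XFAD table it was 9264999 to 18698707 reads, where 3 reads equalled 2.26 to 4.36. All 9 members passed the filter of a mean of 10 normalized counts, among 16086 genes of the aging table and 17025 of the 5XFAD table that did. The microglia label was matched by 9 markers whose summed level was 291092 to 459786 normalized counts in every library. Neutrophil markers (12 genes) summed to 68799 to 157696 in libraries labelled aged Trem1-/-, 82016 to 149121 in aged WT, 38349 to 77046 in libraries labelled young Trem1-/- and 17454 to 26136 in young WT. Monocyte markers (8 genes) summed to 11497 to 14041 in libraries labelled aged Trem1-/-, 10035 to 20660 in aged WT, 10702 to 20016 in libraries labelled young Trem1-/- and 1450 to 2658 in young WT, and none of the 20 markers was at 0 throughout a group. Trem1, the targeted gene, went against the labels: it averaged 164 ± 68.9 normalized counts in libraries labelled aged Trem1-/-, 231 ± 40.8 in aged WT, 92.9 ± 5.95 in libraries labelled young Trem1-/- and 13.9 ± 9.83 in young WT (SD, n = 3 each). In the 5XFAD table it averaged 27.2 ± 10.2 in libraries labelled 5XFAD Trem1+/-, 27.5 ± 12.2 in 5XFAD and 31.0 ± 31.4 in adult WT. Differences below are log2(normalized count + 1) ± SE from limma, with p-values adjusted by Benjamini-Hochberg over all genes of a table and a threshold of 0.05. Where groups are said not to overlap, this describes the libraries only: the share of all genes without overlap was not counted.

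The 9 genes differed widely in level. Per kb of exon, mean normalized counts over the 12 aging libraries were 28342 for C1qb, 26597 for C1qa and 15344 for C1qc, which ranked 5, 6 and 14 among 21832 protein-coding genes. Itgam followed with 2032 per kb at rank 169, then C3ar1 with 896 at rank 478, C3 with 689 at rank 657 and C5ar1 with 466 at rank 1098. Cfp with 119 at rank 4687 and C4b with 75.7 at rank 6329 were the lowest of the 9. In the 5XFAD table the C1q genes ranked 5, 9 and 18, with C1qa at 28615 per kb first, while C3 stood at rank 3492 with 169 per kb. By the longest transcript in place of the union of exons, C1qc stood at 25718 ± 611 per kb in young WT, against 16022 ± 381 by the union (SD, n = 3), so its place below C1qa there rests partly on the length used.

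**Figure D1:**
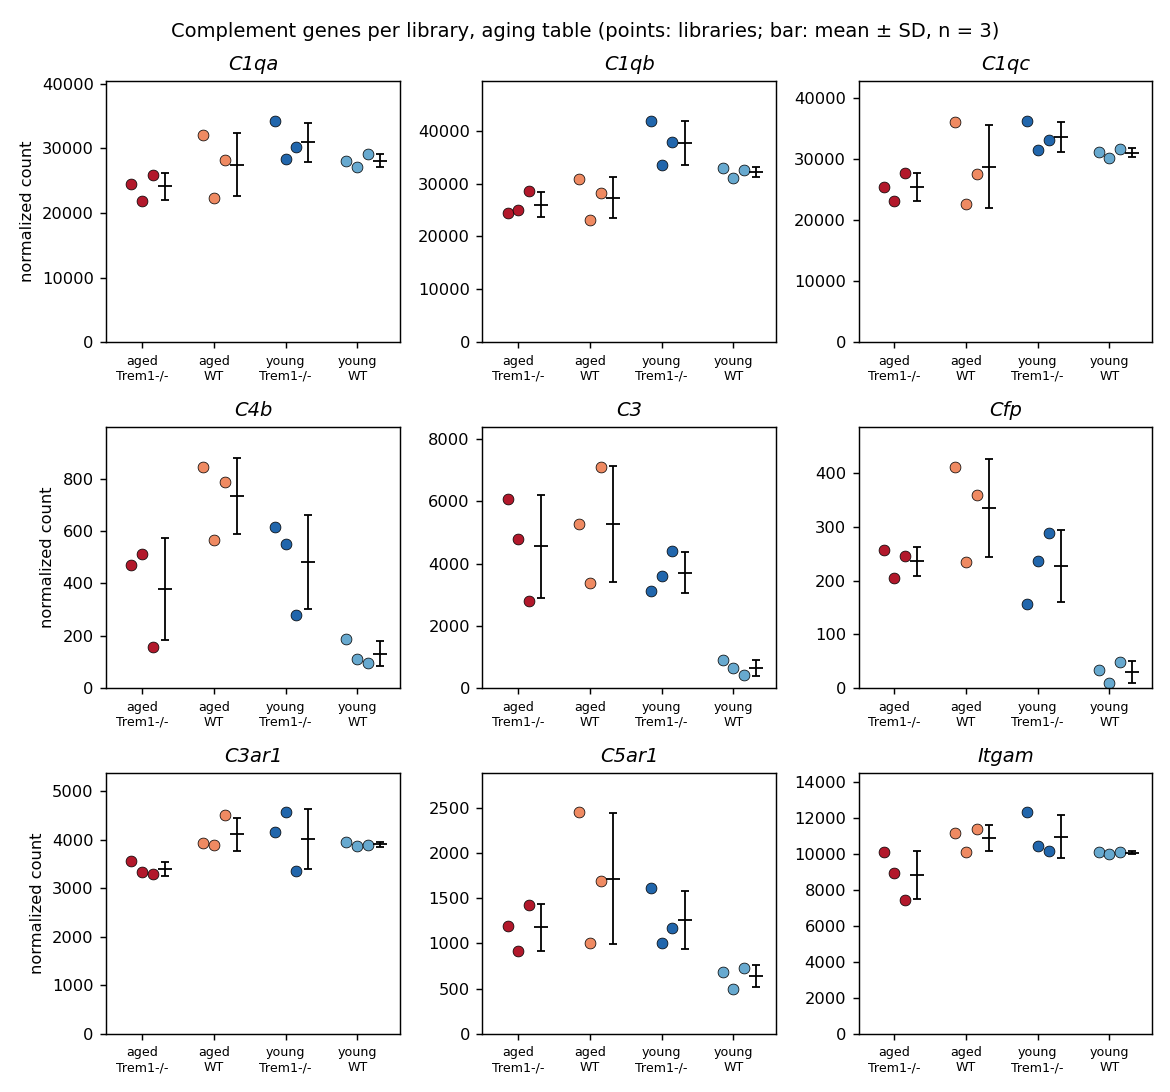
Normalized counts of the 9 genes in the 12 libraries of the aging table, with each library as a point and the mean ± SD (n = 3) as a bar, on linear axes starting at 0. C3, C4b, Cfp and C5ar1 are lowest in young WT, where C3 is at 402 to 898. The C1q genes differ less, with C1qb at 24359 to 28682 in libraries labelled aged Trem1-/- and 33531 to 41873 in those labelled young Trem1-/-.

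C1q expression was high in every group. C1qa, C1qb and C1qc together took 0.584% ± 0.045 of all counts in libraries labelled aged Trem1-/-, 0.602% ± 0.092 in aged WT, 0.743% ± 0.074 in libraries labelled young Trem1-/- and 0.690% ± 0.011 in young WT (SD, n = 3 each). Within the sum the 3 genes took like portions in each library of both tables. The highest single portion was 38.4%, for C1qa in 5XFAD replicate 2, and the lowest 28.3%, for C1qb in the same library.

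C1qb fell in libraries labelled aged Trem1-/- relative to those labelled young Trem1-/-, by 0.54 ± 0.10 on the log2 scale (adjusted p = 0.0054). It was at 24359, 24998 and 28682 normalized counts in the libraries labelled aged Trem1-/-, against 41873, 33531 and 37847 in those labelled young Trem1-/-. The groups did not overlap, and the call held with each of the 6 libraries left out (highest adjusted p = 0.0428), but not with no filter on low values or without limma's trend and robust options. In aged WT, C1qb was at 30799, 23127 and 28175, against 32997, 31133 and 32506 in young WT, a difference of -0.24 ± 0.10 (adjusted p = 0.136). Those groups also did not overlap, although the test was not passed; without aged WT replicate 1 it was (adjusted p = 0.0473). The difference between the age effects under the 2 genotype labels was -0.29 ± 0.14 (adjusted p = 0.321), so the fall between libraries labelled Trem1-/- was not shown to differ from the difference between WT libraries. The summed level of 6 choroid plexus and ependymal markers was 30961 to 40928 normalized counts in libraries labelled aged Trem1-/-, against 2418 to 14859 in those labelled young Trem1-/-, with 1 of the 5 tested markers called higher, and its part in the C1qb difference was not tested.

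C1qa and C1qc passed the test in no comparison as fitted. C1qa was at 24523, 21861 and 25907 in libraries labelled aged Trem1-/-, against 34252, 28362 and 30251 in those labelled young Trem1-/-, a difference of -0.36 ± 0.11 (adjusted p = 0.0921). For C1qc the same difference was -0.40 ± 0.12 (adjusted p = 0.116), with 23071 to 27602 in libraries labelled aged Trem1-/- and 31369 to 36183 in those labelled young Trem1-/-. Neither pair of groups overlapped. Both genes were called with these 2 groups alone in the fit, where calls over all genes also went from 275 to 337. In aged WT relative to young WT the difference was -0.05 ± 0.11 for C1qa and -0.14 ± 0.12 for C1qc (adjusted p = 0.862 and 0.598), and aged WT replicate 2 was the lowest aged WT library of all 3 C1q genes. Without aged WT replicate 1, C1qc was called lower in aged WT (adjusted p = 0.0416). In bulk libraries fewer microglia and less C1q RNA in each cell cannot be told apart, and 8 of the 9 microglia markers fell in aged WT relative to young WT, with 2 of 9 falling between the libraries labelled Trem1-/-.

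The ratio of C1qb to C1qa was compared as well, a measure chosen after its values had been seen. It was 1.08 ± 0.08 in libraries labelled aged Trem1-/-, against 1.22 ± 0.03 in those labelled young Trem1-/-, and 1.0 ± 0.04 in aged WT, against 1.15 ± 0.03 in young WT (SD, n = 3 each). Aged and young libraries did not overlap under either genotype label, and neither did libraries labelled young Trem1-/- and young WT. A two-sided exact permutation test gave p = 0.1 in these 3 comparisons, the smallest p that 3 against 3 libraries allow, and 0.175 after adjustment over 7 such comparisons. In the 5XFAD table the ratio was 0.856 ± 0.008 in libraries labelled 5XFAD Trem1+/-, 0.884 ± 0.128 in 5XFAD and 0.892 ± 0.013 in adult WT, with 5XFAD replicate 2 at 0.736 the lowest library. The ratio in libraries labelled 5XFAD Trem1+/- against adult WT also gave p = 0.1 (0.175 adjusted) by that exact test. The tables were normalized separately, but a ratio within a library does not depend on that scaling.

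**Figure D2:**
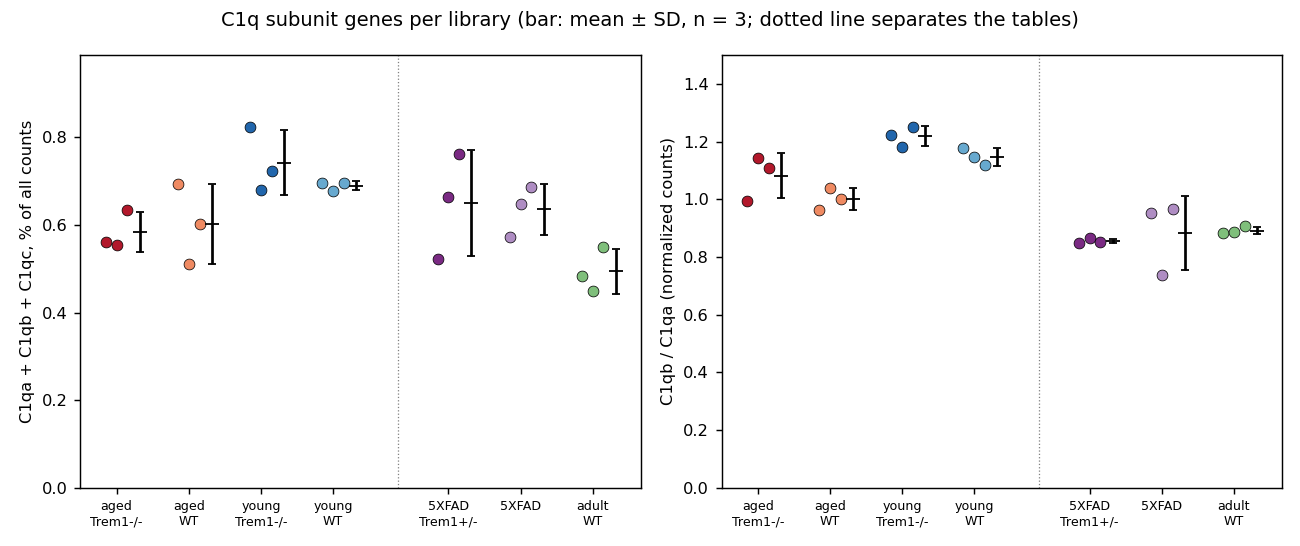
Left, the percentage of all counts taken by C1qa, C1qb and C1qc together; right, the ratio of C1qb to C1qa, for each library, with the mean ± SD (n = 3) as a bar and a dotted line between the 2 tables. The ratio is lower in aged than in young libraries of the same genotype label, at 1.0 in aged WT against 1.15 in young WT.

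Components beyond C1q rose with age in WT. Cfp, C3 and C4b, with the receptor C5ar1, were the 4 of 9 members higher in aged WT than in young WT, and none was lower. Over all genes tested, 6.43% were higher and 2.24% lower in that comparison, and the median difference was 0.11 over the 9 members and -0.01 over all genes.

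C3, the protein on which all complement pathways converge, was at 5281, 3381 and 7117 normalized counts in aged WT, against 898, 643 and 402 in young WT. Each aged WT library was above every young WT library, and the difference was 3.03 ± 0.41, or 8.17-fold (adjusted p = 0.0023). C4b, one of the mouse C4 genes, was at 846, 567 and 788 in aged WT, against 187, 109 and 97.0 in young WT. The groups did not overlap, and C4b rose by 2.52 ± 0.46 (adjusted p = 0.0054).

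Cfp, the gene of properdin, was at 412, 235 and 359 normalized counts in aged WT, against 32.7, 8.75 and 48.0 in young WT. This was the member with the steepest rise in that comparison, 3.70 ± 0.44 (adjusted p = 1.8e-05). C5ar1, the receptor of C5a, was at 2450, 1002 and 1695 in aged WT, against 685, 499 and 727 in young WT, and rose by 1.35 ± 0.31 (adjusted p = 0.0217). The calls of C3, C4b and Cfp held with each of the 6 libraries left out, whereas C5ar1 lost its call without young WT replicate 1 or 2 or aged WT replicate 3 (highest adjusted p = 0.0837) and without limma's trend and robust options.

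The other receptors did not pass the test. C3ar1, the receptor of C3a, was at 3924, 3895 and 4504 in aged WT, against 3950, 3868 and 3884 in young WT (0.07 ± 0.11, adjusted p = 0.776). Itgam, the alpha chain of complement receptor 3, was at 11194, 10102 and 11411 in aged WT, against 10136, 9993 and 10144 in young WT (0.11 ± 0.10, adjusted p = 0.610). Both pairs of groups overlapped.

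Markers of neutrophils and monocytes moved with these genes. In aged WT relative to young WT, 11 of 12 neutrophil and 8 of 8 monocyte markers rose, with median differences of 2.95 and 3.17. Group membership accounted for 94.1% of the variance of the mean marker level over the 12 libraries, so age and marker level cannot be told apart there. Choroid plexus and ependymal markers (6 genes) summed to 27045 to 44837 in aged WT, against 6038 to 14980 in young WT, with 2 of 5 tested called, and their part was not tested. With the mean neutrophil and monocyte marker level as a covariate, standard errors grew by a median of 3.81 times. In that fit 0 of all 16086 genes were called, so the absence of a call among the 9 members says nothing particular to them. C3 then stood at -0.93 ± 0.48, C4b at -0.57 ± 1.33, C5ar1 at 0.30 ± 1.17 and Cfp at 3.74 ± 1.72 (adjusted p = 0.9998 each).

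**Figure D3:**
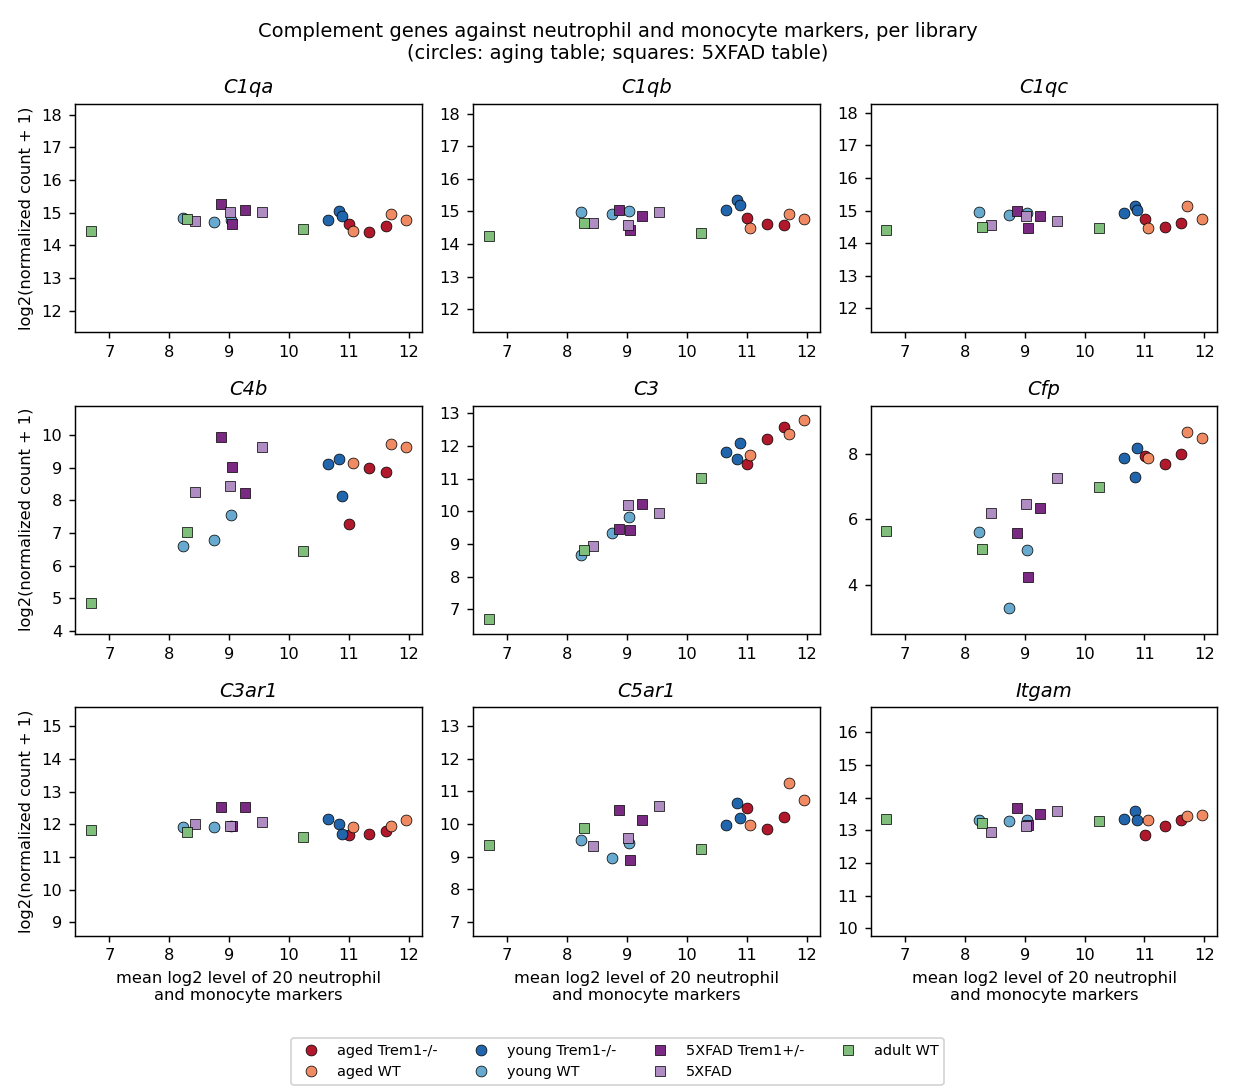
Level of each gene, log2(normalized count + 1), against the mean log2 level of 20 neutrophil and monocyte markers in each library, with circles for the aging table and squares for the 5XFAD table, which were normalized separately, and the same span of 7 units on each vertical axis. C3 climbs along the marker level in both tables, while C1qa, C1qb, C1qc, C3ar1 and Itgam lie nearly flat.

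In young libraries, C3 and Cfp were higher in those labelled Trem1-/- than in WT. They were 2 of 9 members, with none lower, against 2.36% of all genes tested higher and 0.224% lower. C3 was at 3118, 3588 and 4407 in libraries labelled young Trem1-/-, against the young WT values of 898, 643 and 402, a difference of 2.58 ± 0.41 (adjusted p = 0.0131). Cfp was at 157, 236 and 289 in libraries labelled young Trem1-/-, against 32.7, 8.75 and 48.0 in young WT, a difference of 3.13 ± 0.44 (adjusted p = 0.000405). Cfp kept its call with each library left out. C3 lost it without young WT replicate 2 or without replicate 2 or 3 of the libraries labelled young Trem1-/- (highest adjusted p = 0.0646).

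All 9 differences in that comparison were above 0, with a median of 0.22 against -0.01 over all genes. Members that move together, such as the C1q genes, are not independent in such a count. C4b was at 614, 549 and 277 in libraries labelled young Trem1-/-, against 187, 109 and 97.0 in young WT, without overlap (1.85 ± 0.46, adjusted p = 0.0638). C5ar1 was at 1613, 1000 and 1167 in libraries labelled young Trem1-/-, against 685, 499 and 727 in young WT, also without overlap (0.97 ± 0.31, adjusted p = 0.179). Neither passed the test, but C4b did without young WT replicate 1 or without replicate 3 of the libraries labelled young Trem1-/- (lowest adjusted p = 0.0256), by DESeq2 and with the 2 groups alone, the last also for C5ar1. Calls over all genes went from 415 to 648 by DESeq2 and to 649 with the 2 groups alone. C1qa, C1qb, C1qc, C3ar1 and Itgam differed by 0.03 to 0.22. Of the markers, 4 of 12 neutrophil and 6 of 8 monocyte genes rose in the same comparison. With the marker covariate 0 of all 16086 genes were called, so no member could stand out there. C3 was then at -0.32 ± 0.36 and Cfp at 3.16 ± 1.29.

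Aged libraries labelled Trem1-/- had no member past the threshold relative to aged WT. Over all genes 0% were called in either direction by limma, although 1545 genes had an unadjusted p under 0.05. edgeR called 0 genes and DESeq2 called 30, none of them a member. All 9 differences were below 0, with a median of -0.27 against -0.02 over all genes, again a count of members that are not independent. With single libraries left out, the differences of C1qb, C1qc and C3 reached 0.023, 0.024 and 0.10. C4b was at 469, 513 and 155 in libraries labelled aged Trem1-/-, against 846, 567 and 788 in aged WT (-1.11 ± 0.46, adjusted p = 0.460), and C3ar1 at 3567, 3334 and 3294, against 3924, 3895 and 4504 (-0.27 ± 0.11, adjusted p = 0.430). Neither of these 2 pairs of groups overlapped, a description that has no count over all genes beside it. Itgam was at 10132, 8972 and 7453 in libraries labelled aged Trem1-/-, against 11194, 10102 and 11411 in aged WT (-0.31 ± 0.10, adjusted p = 0.369). C3 was at 6083, 4799 and 2790 in libraries labelled aged Trem1-/-, against 5281, 3381 and 7117 in aged WT (-0.21 ± 0.41, adjusted p = 0.909), with wide overlap.

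Between aged and young libraries labelled Trem1-/-, C1qb was the 1 member of 9 called lower and none was called higher, against 0.634% of all genes lower and 1.08% higher. Of the 9 differences, 7 were below 0, with a median of -0.32 against 0.00 over all genes, a count of members that are not independent. Itgam, outside the C1q genes, differed by -0.32 ± 0.10 (adjusted p = 0.119) and was called only with no filter on low values. Of the 4 genes that rose with age in WT, none passed the test here. C3 differed by 0.24 ± 0.41, Cfp by 0.09 ± 0.44, C5ar1 by -0.09 ± 0.31 and C4b by -0.44 ± 0.46 (adjusted p = 0.842, 0.950, 0.927 and 0.710), and the groups overlapped for all 4. Cfp, as an example, was at 258, 205 and 245 in libraries labelled aged Trem1-/-, against 157, 236 and 289 in those labelled young Trem1-/-.

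The interaction tested whether the age difference between libraries labelled Trem1-/- differed from that between WT libraries. It was below 0 and past the threshold for Cfp (-3.60 ± 0.63, adjusted p = 0.0034), C4b (-2.96 ± 0.65, adjusted p = 0.0366) and C3 (-2.79 ± 0.57, adjusted p = 0.0463), 3 of 9 members. Over all genes 2.14% were below 0 and past the threshold and 0.398% above 0. C5ar1 stood at -1.45 ± 0.44 and Itgam at -0.43 ± 0.15 (adjusted p = 0.134 and 0.133). Without aged WT replicate 2 the interactions of C5ar1 and C1qa were called too, and without replicate 1 of the libraries labelled aged Trem1-/- that of Itgam (adjusted p = 0.0028, 0.0297 and 0.0451). Young WT was the lowest of the 4 groups for Cfp, C4b, C3 and C5ar1, and this group enters the interaction, the aged WT comparison and the young Trem1-/- comparison alike, so these are not independent of each other.

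The interaction of Cfp held with each of the 12 libraries left out (highest adjusted p = 0.0206). That of C4b lost its call in 6 of the 12 and that of C3 in 9 of the 12, with adjusted p up to 0.123 for both, and that of C3 also with edgeR and with no filter. Without limma's trend and robust options no member was called, with 5 calls over all genes. With the marker covariate 0 of all genes were called, so the absence of a member there says nothing particular to the members. The interaction was also below 0 and past the threshold for 5 of 8 monocyte and 2 of 12 neutrophil markers, and for Trem1 itself (-3.40 ± 0.64, adjusted p = 0.0043).

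**Figure D4:**
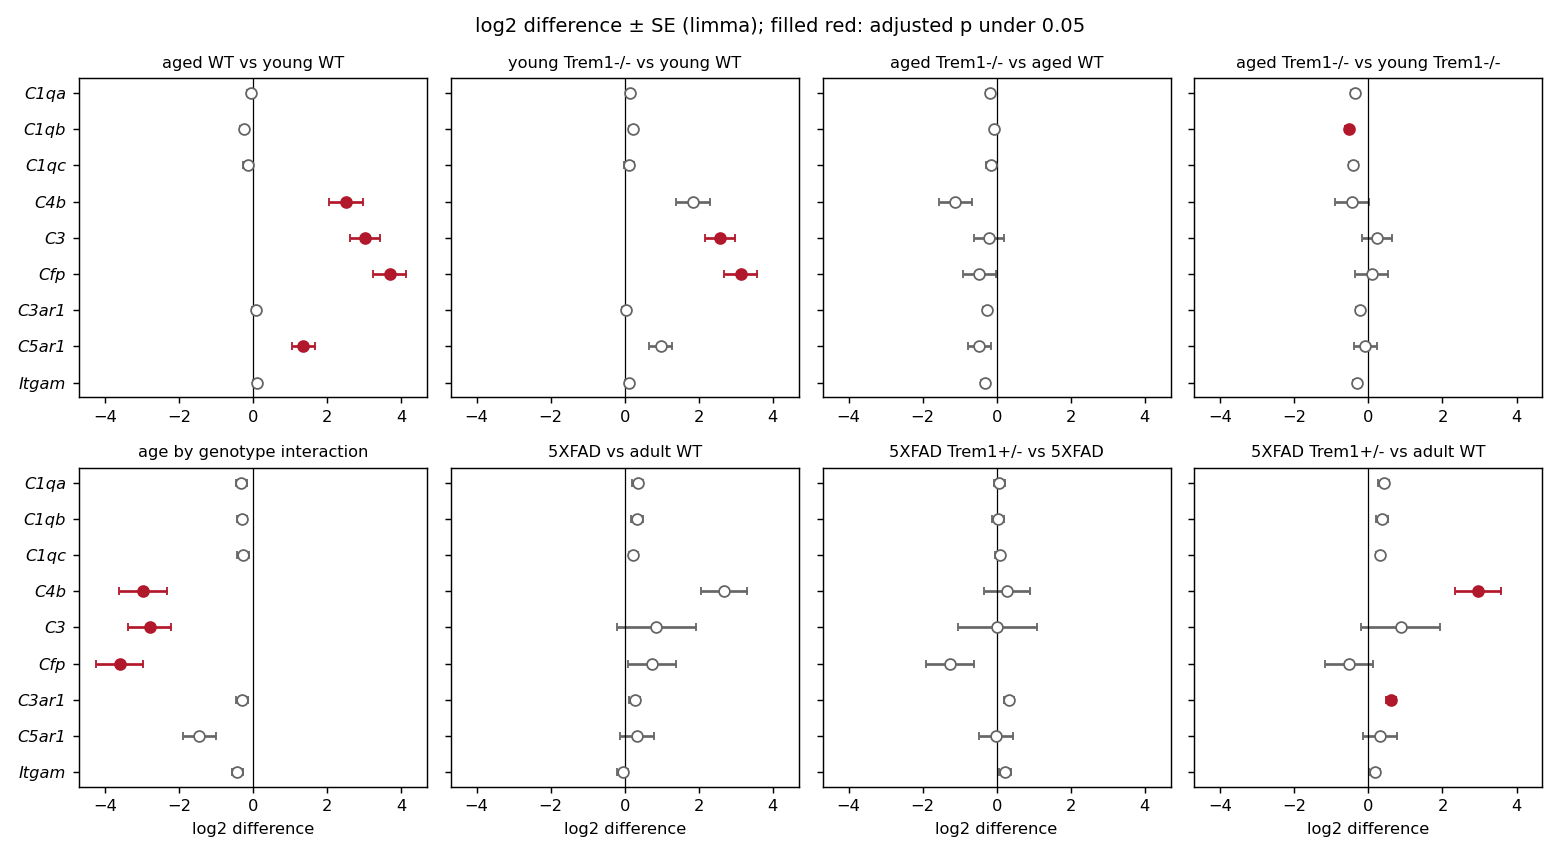
Log2 difference ± SE from limma for each of the 9 genes in the 8 comparisons, with filled red points for adjusted p under 0.05 and a vertical line at 0. C3, C4b and Cfp lie above 2 in aged WT vs young WT and below -2 in the interaction, and no gene is filled in aged Trem1-/- vs aged WT, 5XFAD vs adult WT or 5XFAD Trem1+/- vs 5XFAD.

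The members also fell into sets by their pattern over libraries. Over the 12 aging libraries, the gene most like C1qa was C1qc (Pearson r = 0.969, Spearman rho = 0.951), among 11503 genes with a mean of at least 50. C1qb was most like Ppt1, a lysosomal thioesterase (r = 0.955, rho = 0.951), followed by Olfml3. C3 was most like Hp and Ly6c2, both on the monocyte marker list (r = 0.989 and 0.988, rho = 0.916 and 0.965), and Cfp was most like Slfn1 and the secreted protease inhibitor Slpi (r = 0.981 and 0.973, rho = 0.979 and 0.902). C5ar1 was most like Treml2, a receptor of the Trem family (r = 0.975, rho = 0.979), and C4b was most like Tuba1c (r = 0.942, rho = 0.930). Such correlations run over groups, libraries and scaling that the genes share, and are descriptions without a test.

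In the 5XFAD table, C4b and C3ar1 were higher in libraries labelled 5XFAD Trem1+/- than in adult WT, 2 of 9 members with none lower, against 2.04% of all genes higher and 0.74% lower. C4b was at 520, 301 and 989 normalized counts in libraries labelled 5XFAD Trem1+/-, 306, 349 and 802 in 5XFAD, and 85.8, 28.1 and 129 in adult WT. Every library with the transgenes was above every adult WT library. The difference from adult WT was 2.96 ± 0.63 for 5XFAD Trem1+/- (adjusted p = 0.0425) and 2.68 ± 0.63 for 5XFAD (adjusted p = 0.0727), and both comparisons share the adult WT libraries.

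The C4b calls depended on single libraries. That of 5XFAD Trem1+/- was lost without adult WT replicate 1 or 2 or without replicate 1 or 3 of the libraries labelled 5XFAD Trem1+/- (highest adjusted p = 0.108), by edgeR and without limma's trend and robust options. The difference of 5XFAD from adult WT passed without adult WT replicate 3 (adjusted p = 0.0424), by DESeq2, with no filter and with the 2 groups alone. In the authors' deposited table, where a positive value means higher in adult WT than in 5XFAD, C4b had a log2 fold change of -2.58 with an adjusted p of 0.00977. Astrocyte markers, from cells that also express C4b, summed to 4419 to 5177 in libraries labelled 5XFAD Trem1+/-, 4009 to 5986 in 5XFAD and 3090 to 4023 in adult WT. Of the 6, 1 was called higher in 5XFAD Trem1+/- and 2 in 5XFAD, each against adult WT, and their part in the C4b difference was not tested. Nor was that of choroid plexus and ependymal markers, which summed to 18243 to 103245 in libraries labelled 5XFAD Trem1+/-, 14962 to 81767 in 5XFAD and 2271 to 6568 in adult WT, with none of 5 tested called. With the neutrophil and monocyte covariate the difference of 5XFAD Trem1+/- from adult WT was 2.68 ± 0.56 (adjusted p = 0.0378).

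C3ar1 was at 3944, 5975 and 5974 in libraries labelled 5XFAD Trem1+/-, 4122, 3955 and 4278 in 5XFAD, and 3150, 3663 and 3487 in adult WT. It rose in 5XFAD Trem1+/- relative to adult WT by 0.60 ± 0.14 (adjusted p = 0.0264), while 5XFAD differed from adult WT by 0.26 ± 0.14 (adjusted p = 0.396). Neither pair of groups overlapped. The call was lost without any 1 of the adult WT libraries or without replicate 2 or 3 of the libraries labelled 5XFAD Trem1+/- (highest adjusted p = 0.185), and without limma's trend and robust options. Replicates 2 and 3 stood above the other libraries, and replicate 1 stood beside the 5XFAD values. Over the 9 libraries C3ar1 was most like Itgb2, the beta chain that pairs with Itgam (r = 0.957, rho = 0.917).

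5XFAD libraries had no member past the threshold relative to adult WT, against 1.62% of all genes higher and 0.364% lower. Of the 9 members, 8 were above 0 and the median was 0.33, against 0.00 over all genes. C1qa was at 27214, 33495 and 33275 in 5XFAD, against 23390, 22055 and 28600 in adult WT (0.35 ± 0.15, adjusted p = 0.288). C1qb and C1qc differed by 0.32 ± 0.16 and 0.23 ± 0.11 (adjusted p = 0.371 and 0.350). The summed C1q share of all counts was 0.649% ± 0.121 in libraries labelled 5XFAD Trem1+/-, 0.635% ± 0.058 in 5XFAD and 0.494% ± 0.051 in adult WT (SD, n = 3 each), and the 5XFAD and adult WT libraries did not overlap. Without replicate 1 of the libraries labelled 5XFAD Trem1+/-, C1qa, C1qb and C1qc were called higher there than in adult WT (adjusted p = 0.0140, 0.0394 and 0.0189).

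C3 was at 689, 1194 and 705 normalized counts in libraries labelled 5XFAD Trem1+/-, 488, 1172 and 982 in 5XFAD, and 2055, 102 and 449 in adult WT, the group with the widest spread. Its difference in 5XFAD was 0.86 ± 1.07 (adjusted p = 0.773). The adult WT libraries followed the mean neutrophil and monocyte marker level, which was 10.2, 6.69 and 8.29 in the same order, and with the marker covariate the difference in 5XFAD was 0.14 ± 0.23. Cfp was at 17.8, 79.9 and 46.9 in libraries labelled 5XFAD Trem1+/-, 73.0, 87.2 and 153 in 5XFAD, and 127, 49.2 and 33.2 in adult WT, with overlap between all groups. C5ar1 and Itgam differed by 0.33 ± 0.46 and -0.06 ± 0.15 in 5XFAD relative to adult WT, and their groups overlapped too.

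Libraries labelled 5XFAD Trem1+/- had no member past the threshold relative to 5XFAD, where 0% of all genes were called in either direction by limma. There were 883 genes with an unadjusted p under 0.05, edgeR called 0 and DESeq2 called 16, none of them a member. The median difference of the 9 was 0.07. C3ar1 stood at 0.34 ± 0.14 and Cfp at -1.26 ± 0.65 (adjusted p = 0.931 each), C1qa at 0.07 ± 0.15 and C3 at 0.02 ± 1.07.

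**Figure D5:**
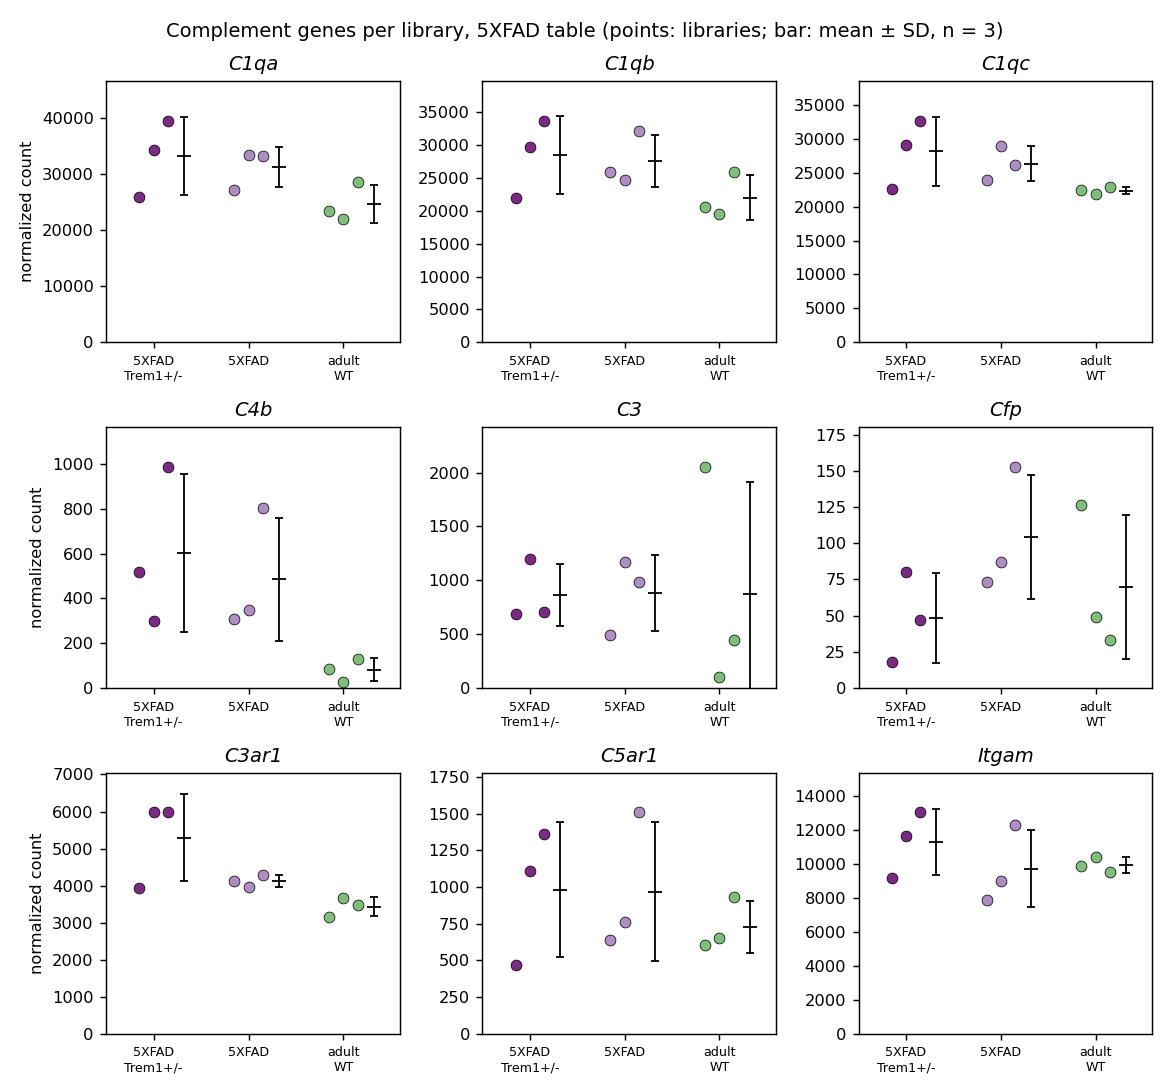
Normalized counts of the 9 genes in the 9 libraries of the 5XFAD table, with each library as a point and the mean ± SD (n = 3) as a bar, on linear axes starting at 0, where the lower end of the C3 bar in adult WT is cut off. C4b is above 300 in all 6 libraries with the transgenes and below 130 in adult WT, and C3 in adult WT spans 102 to 2055.

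A further 47 genes of the pathway were listed, of which 20 passed the filter in the aging libraries and 25 in the 5XFAD libraries. The terminal components C6, C8b and C9 and the mannose-binding lectins Mbl1 and Mbl2 were at 0 in each aging library, and factor D (Cfd) was at 0 in each WT library of that table. In aged WT relative to young WT, 4 of the 20 rose and none fell, with a median of 0.44. Over all genes 6.43% were higher and 2.24% lower. These were Cd55, which speeds the decay of C3-cleaving enzymes (3.20 ± 0.61, adjusted p = 0.0013), Itgb2 (0.40 ± 0.10, adjusted p = 0.016), the C-type lectin-like receptor Cd93 (2.13 ± 0.48, adjusted p = 0.0162) and Itgax, the alpha chain of complement receptor 4 (1.02 ± 0.31, adjusted p = 0.038). Cd55 was at 81.1, 123 and 135 normalized counts in aged WT, against 5.6, 20.8 and 11.4 in young WT, and alone of the 4 kept its call with each library left out. Itgb2, Cd93 and Itgax each lost theirs without aged WT replicate 3 or young WT replicate 3, with adjusted p up to 0.12, 0.0764 and 0.224. Itgb2 and Itgax also did so without aged WT replicate 1, Itgb2 and Cd93 without young WT replicate 2 and Itgax without young WT replicate 1. The Itgax call was lost as well by edgeR, with the 2 groups alone and with the replicate block. With the marker covariate Itgb2 stood at -0.56 ± 0.34, Cd93 at -0.17 ± 1.67 and Itgax at -0.90 ± 1.09. None of the 4 genes was called in that fit, where 0 of all genes were.

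In the other aging comparisons few of the 20 were called. Cd93 was the 1 gene higher in libraries labelled young Trem1-/- than in young WT (2.22 ± 0.48, adjusted p = 0.0295), against 2.36% of all genes. Between aged and young libraries labelled Trem1-/-, Masp1, a protease of the lectin pathway, rose (1.61 ± 0.34, adjusted p = 0.0135), against 1.08% of all genes higher. Masp1 was at 169, 194 and 247 normalized counts in libraries labelled aged Trem1-/-, against 50.2, 69.7 and 79.0 in those labelled young Trem1-/-, without overlap. Itgb2 and Cd93 had interactions below 0 (-0.64 ± 0.15 and -3.03 ± 0.68, adjusted p = 0.0194 and 0.0366), against 2.14% of all genes. None of the 20 was called between aged libraries labelled Trem1-/- and aged WT. Masp1 lost its call without replicate 2 or 3 of the libraries labelled aged Trem1-/-, and Cd93 without 5 of the 6 libraries. The interactions of Itgb2 and Cd93 were lost in 5 and 9 of the 12 omissions, with adjusted p up to 0.144 for Cd93, 0.058 for Masp1, and 0.0801 and 0.123 for the interactions of Itgb2 and Cd93.

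In the 5XFAD table Itgax had the smallest adjusted p of the listed pathway genes. It was at 762, 1542 and 1777 normalized counts in libraries labelled 5XFAD Trem1+/-, 926, 970 and 963 in 5XFAD, and 136, 168 and 198 in adult WT. Itgax rose in 5XFAD Trem1+/- by 2.94 ± 0.26 (adjusted p = 8.9e-06) and in 5XFAD by 2.52 ± 0.26 (adjusted p = 5.9e-05), each relative to adult WT, and kept both calls in every alternative. The log2 difference of its partner chain Itgb2 was 0.31 and 0.16 in the same comparisons and passed the test in neither. Csmd3, a transmembrane protein with complement-control domains, fell by 0.84 ± 0.16 in 5XFAD Trem1+/- and by 0.63 ± 0.16 in 5XFAD relative to adult WT (adjusted p = 0.0069 and 0.046). Colec12, a scavenger receptor with a collectin domain, rose in 5XFAD Trem1+/- relative to adult WT (3.65 ± 0.80, adjusted p = 0.023). The Csmd3 call was lost in 5XFAD Trem1+/- without adult WT replicate 2 (adjusted p = 0.0521), and in 5XFAD without any 1 library except adult WT replicate 3 (up to 0.235), by edgeR, with a pseudocount of 0.5 and with the marker covariate (adjusted p = 0.085). That of Colec12 was lost without adult WT replicate 2 or any 1 of the libraries labelled 5XFAD Trem1+/- (up to 0.0905). Without limma's trend and robust options these calls of both genes were lost, as were those of Itgb2, Cd93 and Itgax in aged WT against young WT. So were the calls of Masp1, of Cd93 in young Trem1-/- against young WT, and of the Itgb2 and Cd93 interactions. With the replicate block Cd93 also lost its call in young Trem1-/- against young WT and in the interaction. Of the 25 genes, 2 rose and 1 fell in 5XFAD Trem1+/- relative to adult WT, against 2.04% of all genes higher and 0.74% lower. In 5XFAD relative to adult WT, 1 rose and 1 fell, against 1.62% higher and 0.364% lower. None was called between 5XFAD Trem1+/- and 5XFAD.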

How the data were processed

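Per the labels' protocols, RNA came from an RNeasy mini plus kit and libraries from a NEBNext Ultra kit. Per the submitters' processing notes, the tools were fastp, HISAT2 2.0.5 with GRCm38, featureCounts 1.5.0-p3 and DESeq2 1.20.0; the annotation release, multi-read handling and strandedness are not given in the sources used here. The deposited per-library columns and mean column hold a signal, counts divided by size factors, per the file headers and values. Expressed in units of a single read, 100% of nonzero values were whole within 0.05 read, which gave the depths and the reads for edgeR and DESeq2. The deposited tables also hold the authors' log2 fold change and its standard error, a test score, p-values and adjusted p-values, for young WT over aged Trem1-/- and for adult WT over 5XFAD.

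Genes with a mean of at least 10 normalized counts were tested on log2(normalized count + 1) by limma 3.58.1 in R 4.3.3, with its trend and robust options and 1 fit per table, after the test was checked on simulated data. The pseudocount of 1 makes fold changes of low genes too small. Gene positions and lengths are from GENCODE M21, which held 53749 of the symbols. The tested model has no block: residuals of equally numbered libraries correlated with a median of 0.0119 among aging libraries and 0.0116 among 5XFAD libraries. Alternatives were pseudocounts of 0.5 and 5, no filter, TMM scaling, only the groups compared, limma without trend and robust, edgeR 4.0.16, DESeq2 1.42.0, a replicate block, the marker covariate, the longest transcript as gene length and leaving out each library.

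The members, lists, tests and alternatives were chosen with earlier results of these data known. All 9 members are named, with up to 5 called genes of the other pathway list for each comparison by adjusted p, the 3 genes most like each member (fewer are printed) and Trem1. Some results that this rule covers are not reported here. Floors of 3 reads cover counting error only.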

Additional observations from a re-analysis of the deposited data

Results flagged for a closer look

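The age difference under the 2 genotype labels differed past the threshold for 3 of the 9 genes, by the interaction term of the limma fit. Over all genes, 2.14% were below 0 and past the threshold and 0.398% above 0. For Cfp the interaction was -3.60 ± 0.63 (log2, adjusted p = 0.0034), with age differences of 0.09 between the libraries labelled Trem1-/- and 3.70 between WT libraries. For C4b it was -2.96 ± 0.65 (adjusted p = 0.0366), with -0.44 and 2.52. For C3 it was -2.79 ± 0.57 (adjusted p = 0.0463), with 0.24 and 3.03. Trem1 had the same pattern, at -3.40 ± 0.64, and its level in the libraries labelled young Trem1-/- went against the labels. With single libraries left out, the interaction of Cfp kept its call, while those of C4b and C3 reached adjusted p = 0.123. No member was called without limma's trend and robust options, where 5 of all genes were, or with the marker covariate, where 0 of all genes were.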

How the results depend on the processing

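Counts of members past the threshold are given out of 9, with the count over all genes in brackets where an alternative moved the first, since both moved. No member was called between aged libraries labelled Trem1-/- and aged WT, or between 5XFAD Trem1+/- and 5XFAD, under any alternative run. The 4 calls (1394) of aged WT against young WT became 0 (0) with the marker covariate, 3 without trend and robust and 3 to 6 with single libraries left out. The 2 calls (415) of young Trem1-/- against young WT became 4 (649) with only the groups compared, 4 (490) with the replicate block, 0 (0) with the marker covariate and 1 to 3 with single libraries left out. The 1 call (275) of aged against young Trem1-/- became 3 (337) with only the groups compared, 3 (350) with the replicate block and 0 (12) without trend and robust. The 3 interactions (408) became 0 (5) without trend and robust, 0 (0) with the marker covariate and 1 to 5 with single libraries left out, the 5 (790) without aged WT replicate 2. The 0 calls (337) of 5XFAD against adult WT became 1 (795) with no filter, 1 (285) with only the groups compared, 1 (778) with DESeq2, 2 (628) with the replicate block and 0 to 1 with single libraries left out. The 2 calls (473) of 5XFAD Trem1+/- against adult WT became 0 (27) without trend and robust, 1 (368) with edgeR, 4 (848) with the replicate block and 0 to 4 with single libraries left out. Libraries with equal replicate numbers had low residual correlations. For aging libraries they spanned -0.136 to 0.0988, with 0 of 18 pairs over 0.1. For 5XFAD libraries they spanned -0.0328 to 0.203, with 1 of 9 pairs over 0.1. These correlations run over all genes, so they do not decide whether the numbers pair the libraries for a given gene. The block results were therefore not read as weaker or firmer effects. The causes of the changed counts were not tested.

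Signs that turned with the marker covariate are given with SE. In aged WT against young WT they were C3 at -0.93 ± 0.48, C4b at -0.57 ± 1.33, C3ar1 at -0.16 ± 0.42, Itgam at -0.57 ± 0.37, Itgax at -0.90 ± 1.09, Itgb2 at -0.56 ± 0.34 and Cd93 at -0.17 ± 1.67. In young Trem1-/- against young WT they were C1qa at -0.22, C1qb at -0.048, C1qc at -0.23, C3 at -0.32, C4b at -0.41, C3ar1 at -0.14 and Itgam at -0.38. In the interaction they were C1qa at 0.090 ± 0.338, C1qb at 0.014 ± 0.319, C1qc at 0.12 ± 0.40, C3 at 0.45 ± 0.42, Itgam at 0.13 ± 0.32 and Itgb2 at 0.14 ± 0.30. Standard errors over all genes grew by a median of 3.81, 2.87 and 2.36 times in these comparisons, in the order given. With 0 of all genes called there, a turned sign was not shown to be a reversal. C3 turned to 0.13 ± 0.14 in aged Trem1-/- against aged WT, to -0.48 ± 0.15 in aged against young Trem1-/- (not called) and to -0.054 ± 0.225 in 5XFAD Trem1+/- against 5XFAD.

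With single libraries left out, uncalled differences spanned 0. In aged WT against young WT the range was -0.17 to 0.097 for C1qa and -0.31 to 0.023 for C1qc, and in young Trem1-/- against young WT -0.066 to 0.16 for C3ar1. In aged Trem1-/- against aged WT it was -0.18 to 0.023 for C1qb, -0.31 to 0.024 for C1qc and -0.50 to 0.10 for C3. In aged against young Trem1-/- it was -0.0031 to 0.56 for C3, -0.80 to 0.11 for C4b, -0.15 to 0.29 for Cfp and -0.24 to 0.10 for C5ar1. In 5XFAD against adult WT it was -0.22 to 1.94 for C3, -0.040 to 0.58 for C5ar1 and -0.24 to 0.083 for Itgam. In 5XFAD Trem1+/- against 5XFAD it was -0.064 to 0.24 for C1qa, -0.099 to 0.21 for C1qb, -0.033 to 0.23 for C1qc, -0.36 to 0.27 for C3, -0.16 to 0.71 for C4b and -0.32 to 0.45 for C5ar1. In 5XFAD Trem1+/- against adult WT it was -0.20 to 1.96 for C3 and -1.01 to 0.047 for Cfp. Near-zero differences also turned with other tools: in 5XFAD Trem1+/- against 5XFAD, C3 was at -0.0044 with edgeR and -0.029 with DESeq2 and C5ar1 at 0.039 with edgeR, 0.019 with DESeq2 and 0.0092 with TMM scaling, and in 5XFAD Trem1+/- against adult WT, C3 was at -0.00094 with edgeR and -0.0095 with DESeq2. Depth was at least 8600878 reads a library. Cfp was at 8.75 normalized counts in young WT replicate 2, where 3 reads were worth 3.28.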
